A study of Mus musculus with 4 samples.

Results

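The CDK inhibitors and D-type cyclins comprise 10 genes that control entry into the cell cycle. They are 3 Cip/Kip inhibitors (Cdkn1a, Cdkn1b and Cdkn1c), 4 Ink4 inhibitors (Cdkn2a, Cdkn2b, Cdkn2c and Cdkn2d) and 3 D-type cyclins (Ccnd1, Ccnd2 and Ccnd3). Each gene was found by its symbol in the platform annotation, and all 10 were among the 22180 named genes tested. Each had 1 row on the array, that is 1 transcript cluster, the set of probes that reads 1 gene. The samples were primary keratinocytes, the epithelial cells of the epidermis, grown from 1-week-old C57BL/6J mice. Glut1-deficient cells (KO) carried floxed Glut1 alleles (Glut1_fl/fl) together with Cre recombinase under the keratin 14 promoter (K14 Cre), which is active in basal keratinocytes. Wild-type cells (WT) carried the same floxed alleles, and no Cre is named for them, so the deletion and the presence of Cre cannot be told apart. Each genotype had 4 mice and 2 arrays, and each array read RNA pooled from 2 plates of cells. The medium held 5 ng/ml EGF, 0.5 µg/ml insulin and 0.05 mM calcium chloride. Cells were replated at equal number after 3 days and collected 1 day later, with 1000000 Glut1-deficient or 1500000 wild-type cells going into each extraction. All values are intensities on the log2 scale, and the number of arrays limits their precision. Differences are Glut1-deficient minus wild type throughout.

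D-type cyclins are made in response to growth factors and assemble with the kinases Cdk4 and Cdk6. These complexes phosphorylate the retinoblastoma protein and its relatives, which frees E2F transcription factors to switch on genes of DNA replication. Ink4 proteins bind Cdk4 and Cdk6 and block their pairing with D-type cyclins, whereas Cip/Kip proteins bind a wider set of cyclin-kinase complexes. In the epidermis, inhibitors of both families are known from keratinocytes that leave the cell cycle as they differentiate. Much of the control of p21, p27 and cyclin D1 acts on protein stability, which arrays of RNA do not read.

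Promoter windows of 3 genes are shown because they belong to the member with the largest negative difference (Cdkn2b), to an inhibitor with a positive difference (Cdkn1b) and to the gene downstream of the pathway that fell most (Cdc6). Each runs from 250 bases before to 50 after a RefSeq start site (GRCm38.p6), 5′ to 3′ on the gene's strand. Capitals mark matches on either strand to a GC box (GGGCGG), which Sp1 and KLF factors can bind, to a CACCC box (CACCC), also a KLF motif, or to an E2F motif (TTTCCCGC, TTTCGCGC, TTTGCCGC or TTTGGCGC).
Cdkn1b, chr6:134920151-134920450, plus strand: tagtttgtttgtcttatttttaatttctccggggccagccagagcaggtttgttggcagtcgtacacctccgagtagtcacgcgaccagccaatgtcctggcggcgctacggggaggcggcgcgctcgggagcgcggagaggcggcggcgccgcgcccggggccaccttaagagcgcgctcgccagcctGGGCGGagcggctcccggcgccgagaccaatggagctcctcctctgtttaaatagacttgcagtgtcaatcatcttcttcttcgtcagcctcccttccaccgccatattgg
Cdkn2b, chr4:89310983-89311282, minus strand: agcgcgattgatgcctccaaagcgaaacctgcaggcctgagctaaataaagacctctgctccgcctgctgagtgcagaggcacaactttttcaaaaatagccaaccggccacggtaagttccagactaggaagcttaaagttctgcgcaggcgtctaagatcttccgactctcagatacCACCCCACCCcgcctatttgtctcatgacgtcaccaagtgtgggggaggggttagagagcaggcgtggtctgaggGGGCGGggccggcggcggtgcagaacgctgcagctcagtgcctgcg
Cdc6, chr11:98907901-98908200, plus strand: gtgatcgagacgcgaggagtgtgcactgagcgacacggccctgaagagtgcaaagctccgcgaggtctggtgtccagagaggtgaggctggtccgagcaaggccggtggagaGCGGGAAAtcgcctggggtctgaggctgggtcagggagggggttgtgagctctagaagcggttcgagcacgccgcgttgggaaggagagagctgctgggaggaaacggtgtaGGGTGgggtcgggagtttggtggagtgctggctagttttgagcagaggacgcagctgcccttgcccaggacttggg
The Cdkn1b window held 1 GC box, and the Cdkn2b window held 1 GC box and 2 adjoining CACCC boxes. In the Cdc6 window 1 E2F motif and 1 CACCC box lay on the minus strand, and no match in these 3 windows overlapped one to another motif. Windows were held for 7 of the 10 members, namely Cdkn1a, Cdkn1b, Cdkn2a, Cdkn2b, Cdkn2c, Cdkn2d and Ccnd3, in 11 windows. A GC box occurred in 9 of these 11 windows, against 35.7% of all 32851 windows of that length, and a CACCC box in 9 of 11 against 57.5%. An E2F motif occurred in 1 of the 11 member windows, the upstream window of Cdkn2a, and in 6 of the 11 windows of the E2F target genes described below, against 2.26% of all windows. These matches describe letters in a window and are not evidence of binding.

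Before the members, the labels and the cell types were examined. The brighter of 2 Slc2a1 rows, the gene that encodes Glut1, read 11.01 and 11.01 on the Glut1-deficient arrays, against 11.13 and 11.05 on the wild-type arrays (limma adjusted p = 0.675). The dimmer row read 4.80 and 4.44 on the Glut1-deficient arrays, against 5.18 and 5.10 on the wild-type arrays (difference -0.52, 95% interval -0.89 to -0.15, limma adjusted p over all rows 0.129). Which exons were removed and where the probes lie is not known here, so neither row checks the genotype labels. Basal keratinocyte markers were present, with Krt14 at 12.15 and 12.21 in Glut1-deficient cells and 12.56 and 12.54 in wild-type cells, while Krt5 was not analysed here. Krt15, another basal keratin, was at or below 3.27 on every array. Of 13 fibroblast markers, 2 rose, against 1.79% of all genes, 0 fell and 11 did not pass. There were 12 positive differences and 1 negative, with a median of 0.99 log2 units. The negative one was Fbln1 (-0.61), the brightest of these markers. The summed linear intensity of all 13 was 983 to 1541 on Glut1-deficient arrays, against 614 to 653 on wild-type arrays. Of 8 melanocyte markers, 4 rose and 4 did not pass, against 1.79% of all genes that rose, with 7 positive differences and 1 negative. Their sums were 963 to 1029 on Glut1-deficient arrays against 378 to 470.5 on wild-type arrays. No value on this scale is 0, and no detection calls were used. In RNA from a mixed culture, fewer cells of a type and less RNA per cell cannot be told apart.

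Cdkn1c was higher in Glut1-deficient keratinocytes and was the only member to pass the test over all genes. It encodes p57Kip2, a Cip/Kip inhibitor whose gene is imprinted in the mouse and expressed from the maternal copy, and it lies at chr7:143458339-143461059 (GRCm38.p6 gene table). Its log2 value was 5.57 and 5.81 on the Glut1-deficient arrays, against 4.66 and 4.78 on the wild-type arrays. The wild-type values were close to 4.76, the median of the means of all genes, and no detection calls were used. Both Glut1-deficient arrays lay above both wild-type arrays, and the gap between the genotypes exceeded the spread within either. The means were 5.69 ± 0.16 in Glut1-deficient and 4.72 ± 0.09 in wild-type cells (SD, n = 2 each). Glut1-deficient cells were thus 0.97 log2 units higher (SE 0.12, 95% interval 0.66 to 1.27, limma adjusted p = 0.0331). On a linear scale that is 1.95-fold. In all, 1 of the 10 members passed this test, against 2.84% of all genes.

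With any 1 array left out, 0 of 22180 genes passed in limma (2948 to 4627 at unadjusted p under 0.05), and Cdkn1c lost its call with them. Its log2 fold change was then 1.08 without Glut1-deficient array 1, 0.85 without Glut1-deficient array 2, 0.90 without wild-type array 1 and 1.03 without wild-type array 2, with adjusted p from 0.104 to 0.264. On the same arrays the fibroblast marker sum was 1541 and 983 in Glut1-deficient cells, against 653 and 614 in wild-type cells. The melanocyte marker sum was 963 and 1029 in Glut1-deficient cells, against 470.5 and 378 in wild-type cells. The part of either cell type in the Cdkn1c difference was not tested.

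**Figure D1:**
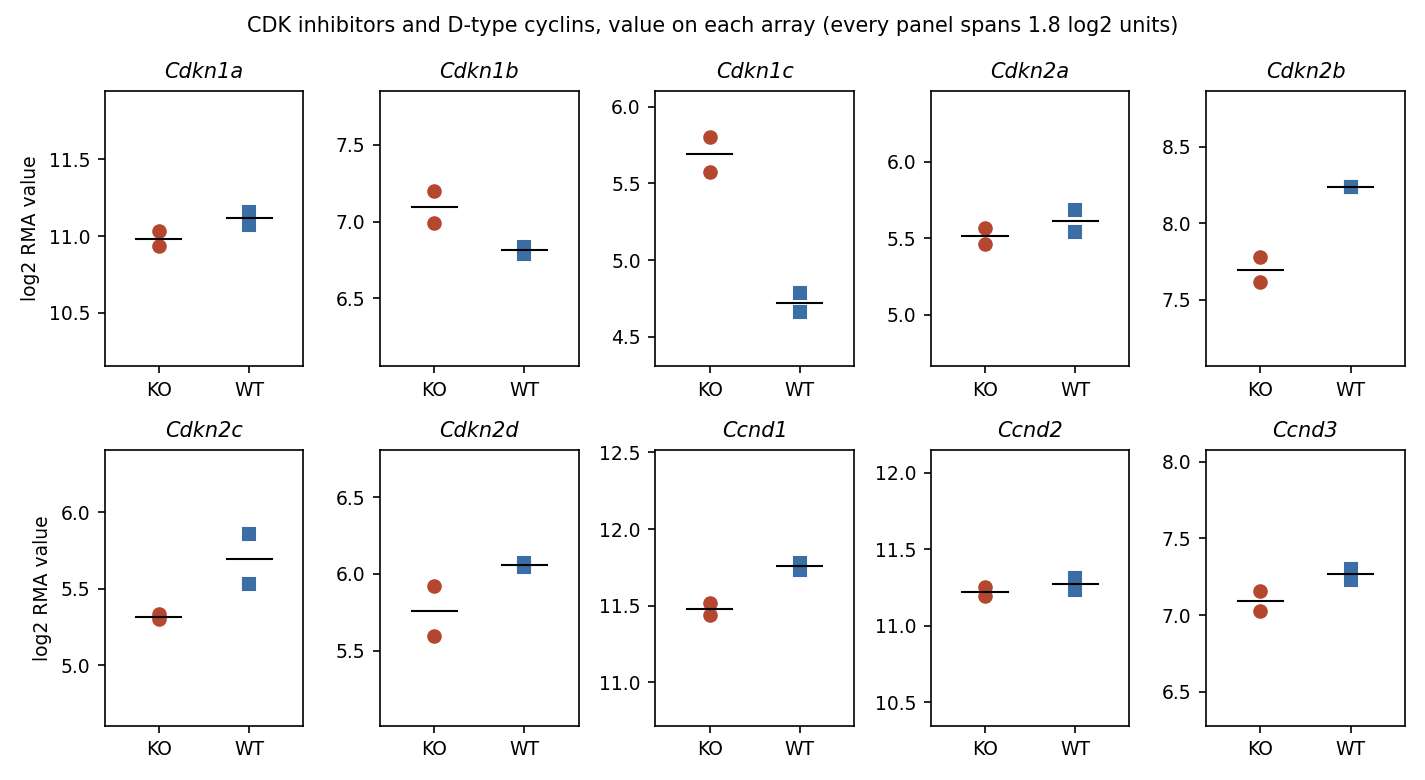
Log2 RMA value of each of the 10 genes on each array, Glut1-deficient (KO, circles) left of wild type (WT, squares), with a bar at each mean (n = 2 each) and the same span on every vertical axis. Cdkn1c is the gene with the widest gap, at 5.57 and 5.81 in KO against 4.66 and 4.78 in WT, and Cdkn2a and Ccnd2 are the genes whose arrays overlap between genotypes.

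The other Cip/Kip inhibitors did not pass the test. Cdkn1b encodes p27Kip1, which holds cyclin E and cyclin A complexes of Cdk2 inactive in resting cells. It read 7.20 and 6.99 on the Glut1-deficient arrays, against 6.83 and 6.79 on the wild-type arrays. Both Glut1-deficient values were the higher ones, array 1 more so than array 2. The difference of 0.29 log2 units (95% interval 0.01 to 0.56) had an adjusted p of 0.214 in limma, and 0.0445 before adjustment. Cdkn1a encodes p21Cip1, the inhibitor best known as a target of p53. It read 11.03 and 10.93 on the Glut1-deficient arrays, against 11.08 and 11.16 on the wild-type arrays. Both Glut1-deficient values lay just below the wild-type values. Its log2 fold change was -0.13 (95% interval -0.37 to 0.10, limma adjusted p = 0.469), so a rise of the size seen for Cdkn1c lies outside the interval.

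All 4 Ink4 inhibitors had negative differences, and none passed in limma (0 of 4). In limma 2 of the 4 had an unadjusted p under 0.05, against 22.2% of all genes. Cdkn2b encodes p15Ink4b, which TGF-beta induces in epithelial cells, and it lies beside Cdkn2a on chromosome 4. It read 7.61 and 7.78 on the Glut1-deficient arrays, against 8.23 and 8.24 on the wild-type arrays. The wild-type arrays were nearly identical, and both Glut1-deficient arrays lay below them. The difference was -0.54 log2 units (SE 0.10, 95% interval -0.79 to -0.29), with a limma p of 0.00275 that became 0.0633 after adjustment. At an adjusted p under 0.1, which 8.36% of all genes met, Cdkn2b was thus the second member to be called. It passed in limma with an intensity-dependent variance (adjusted p = 0.00711) and among genes above the median level (adjusted p = 0.0184), and over all alternatives its adjusted p ran from 0.00603 to 0.313. With the intensity trend 12% of all genes passed, and of the 11090 genes above the median level 2327 did.

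Cdkn2c, which encodes p18Ink4c, read 5.30 and 5.33 on the Glut1-deficient arrays, against 5.86 and 5.53 on the wild-type arrays. Its Glut1-deficient values were close together and its wild-type values were spread, with the lower wild-type array nearer to the Glut1-deficient ones. The log2 fold change was -0.38 (95% interval -0.72 to -0.03, limma adjusted p = 0.194). Cdkn2d encodes p19Ink4d and read 5.60 and 5.92 on the Glut1-deficient arrays, against 6.07 and 6.05 on the wild-type arrays. Here the Glut1-deficient arrays were the spread pair, and array 2 lay close to the wild-type arrays. The log2 fold change was -0.30 (95% interval -0.64 to 0.04, limma adjusted p = 0.275). Cdkn2a gives rise to both p16Ink4a and p19Arf from overlapping transcripts, and its single row was not resolved between them. It read 5.46 and 5.57 on the Glut1-deficient arrays, against 5.68 and 5.54 on the wild-type arrays. The genotypes overlapped, with a log2 fold change of -0.10 (95% interval -0.36 to 0.16, limma adjusted p = 0.62).

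All 3 D-type cyclins had small negative differences, and none passed in limma (0 of 3). Unadjusted p in limma was under 0.05 for 1 of the 3, against 22.2% of all genes. Ccnd1, the D-type cyclin that mitogens such as EGF are known to induce in epithelial cells, read 11.44 and 11.52 on the Glut1-deficient arrays, against 11.73 and 11.78 on the wild-type arrays. The genotypes were separate and each pair was tight. The difference of -0.28 log2 units (SE 0.09, 95% interval -0.50 to -0.05) had an adjusted p of 0.163 in limma, and 0.0253 before adjustment. Ccnd1 passed with the intensity trend (adjusted p = 0.00906), and over all alternatives its adjusted p ran from 0.00831 to 0.44. Ccnd3, the D-type cyclin known from lymphoid cells and differentiating tissues, read 7.03 and 7.16 on the Glut1-deficient arrays, against 7.30 and 7.23 on the wild-type arrays. Array 2 of the Glut1-deficient pair was near the lower wild-type array, and the log2 fold change was -0.17 (95% interval -0.42 to 0.07, limma adjusted p = 0.36). Ccnd2 read 11.25 and 11.19 on the Glut1-deficient arrays, against 11.31 and 11.24 on the wild-type arrays. Its genotypes overlapped, and its log2 fold change of -0.05 had a 95% interval of -0.28 to 0.18 (limma adjusted p = 0.787).

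**Figure D2:**
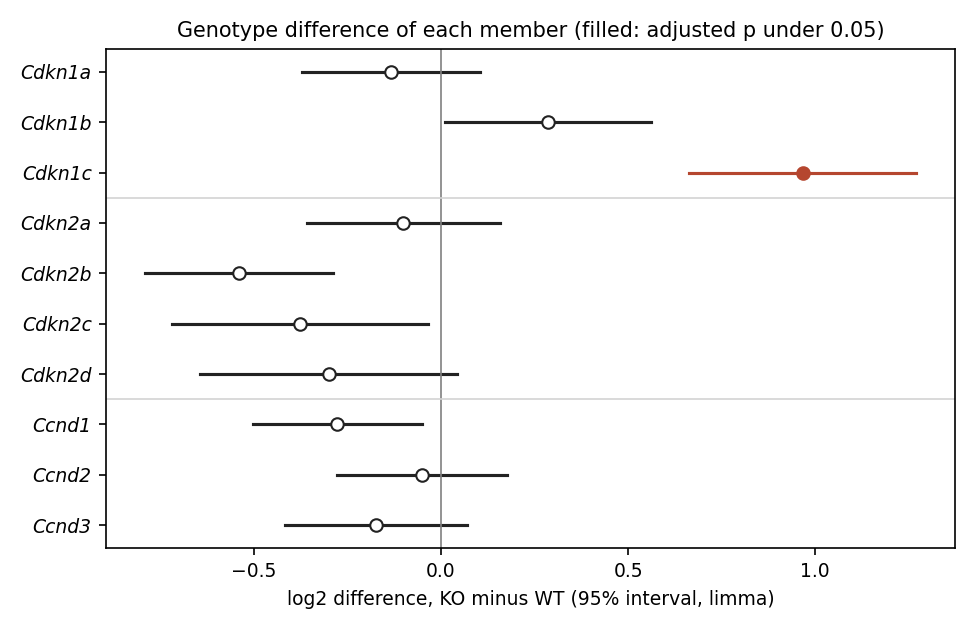
Log2 difference of each gene, Glut1-deficient minus wild type, with its 95% interval from limma over all genes, in the order Cip/Kip inhibitors, Ink4 inhibitors and D-type cyclins from the top. Cdkn1c at 0.97 is the only filled point (adjusted p under 0.05), and all 4 Ink4 inhibitors and all 3 D-type cyclins lie below 0.

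Among the 10 genes, 2 had positive and 8 negative differences, with a median log2 fold change of -0.15, against -0.0074 over all genes. Their median deviation from the wild-type mean was -0.20 and -0.12 on the Glut1-deficient arrays 1 and 2. Arrays of the genotypes did not overlap for 8 of the 10, with 2 higher and 6 lower in Glut1-deficient cells. Over all genes, 53.2% did not overlap, 25.5% higher and 27.7% lower. An unadjusted p under 0.05 in limma was met by 5 of the 10, against 22.2% of all genes. All 10 lay above the median level of the genes, so the whole array is an unlike background. In limma on the 11090 genes above that level, 4316 had an unadjusted p under 0.05.

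The cell cycle kinases, listed with the subunits Ccnh and Mnat1 of the CDK-activating kinase Cdk7, gave no call in limma (0 of 7). There were 2 at unadjusted p under 0.05 in limma, which 22.2% of all genes met. Cdk4 and Cdk6, the partners of D-type cyclins, had log2 fold changes of -0.09 and -0.13. Cdk2, the partner of cyclins E and A, read 7.94 and 8.19 on the Glut1-deficient arrays, against 8.44 and 8.33 on the wild-type arrays (log2 fold change -0.32). Cdk1, the mitotic kinase, read 8.36 and 8.87 on the Glut1-deficient arrays, against 9.22 and 9.03 on the wild-type arrays. The Cdk1 difference of -0.50 was -0.25 without Glut1-deficient array 1 and -0.76 without Glut1-deficient array 2. Ccnh (cyclin H) read 8.07 and 8.22 on the Glut1-deficient arrays, against 7.97 and 7.79 on the wild-type arrays, both Glut1-deficient values being the higher (log2 fold change 0.26, limma adjusted p = 0.256). Cyclins outside the D group also gave none (0 of 4 tested, 2 at unadjusted p under 0.05). Ccne1, cyclin E1 of the G1/S transition, read 7.82 and 7.99 on the Glut1-deficient arrays, against 8.50 and 8.40 on the wild-type arrays (log2 fold change -0.54, limma adjusted p = 0.0713). Ccna2, cyclin A2 of S phase and mitosis, was at -0.44 (limma adjusted p = 0.139). Of the CDK phosphatases and inhibitory kinases, 0 of 4 passed in limma (2 at unadjusted p under 0.05). Cdc25a, which activates Cdk2, was at -0.72 (limma adjusted p = 0.0808) and its relative Cdc25b at 0.37 (limma adjusted p = 0.12), while Wee1 was at 0.17 and Cdc25c at -0.01.

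Downstream of D-type cyclins, 3 E2F target genes fell in Glut1-deficient cells, namely Cdc6, Mcm7 and Tyms. These were 3 of 11 listed, against 1.05% of all genes, while 8 did not pass and none rose, and all 11 had negative differences with a median of -0.67. Cdc6, whose promoter is printed above and whose product loads the replicative helicase, read 7.20 and 7.72 on the Glut1-deficient arrays, against 8.75 and 8.80 on the wild-type arrays. Array 1 of the Glut1-deficient pair was the lower, and both lay more than 1 log2 unit below the wild-type arrays. Cdc6 fell by 1.31 on the log2 scale (SE 0.18, limma adjusted p = 0.0419), Mcm7, a helicase subunit, by 0.66 (adjusted p = 0.0484) and Tyms, thymidylate synthase, by 0.62 (adjusted p = 0.0452). Mcm6, another helicase subunit, was at -0.71 (adjusted p = 0.0528). Relative to the wild-type mean, the list median was lower on Glut1-deficient array 1 (-0.82) than on array 2 (-0.54). With the intensity trend 10 of the 11 fell, against 1327 of all 22180 genes. All calls were lost with any 1 array left out, as for every gene.

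The pocket proteins and E2F factors themselves gave no call in limma (0 of 13, with 6 at unadjusted p under 0.05, all negative). Of all genes, 11.2% met that unadjusted threshold with a negative difference. Rb1, the retinoblastoma gene, was at 0.02, and its relative Rbl1 (p107) at -0.40. The largest differences were those of the repressor factors E2f8, at 7.57 and 7.94 on Glut1-deficient arrays against 8.61 and 8.57 on wild-type arrays (log2 fold change -0.83, limma adjusted p = 0.0587), and E2f7 (-0.66, adjusted p = 0.0818). Tfdp1, the dimerisation partner of E2F factors, was at -0.36. The list median was -0.30.

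**Figure D3:**
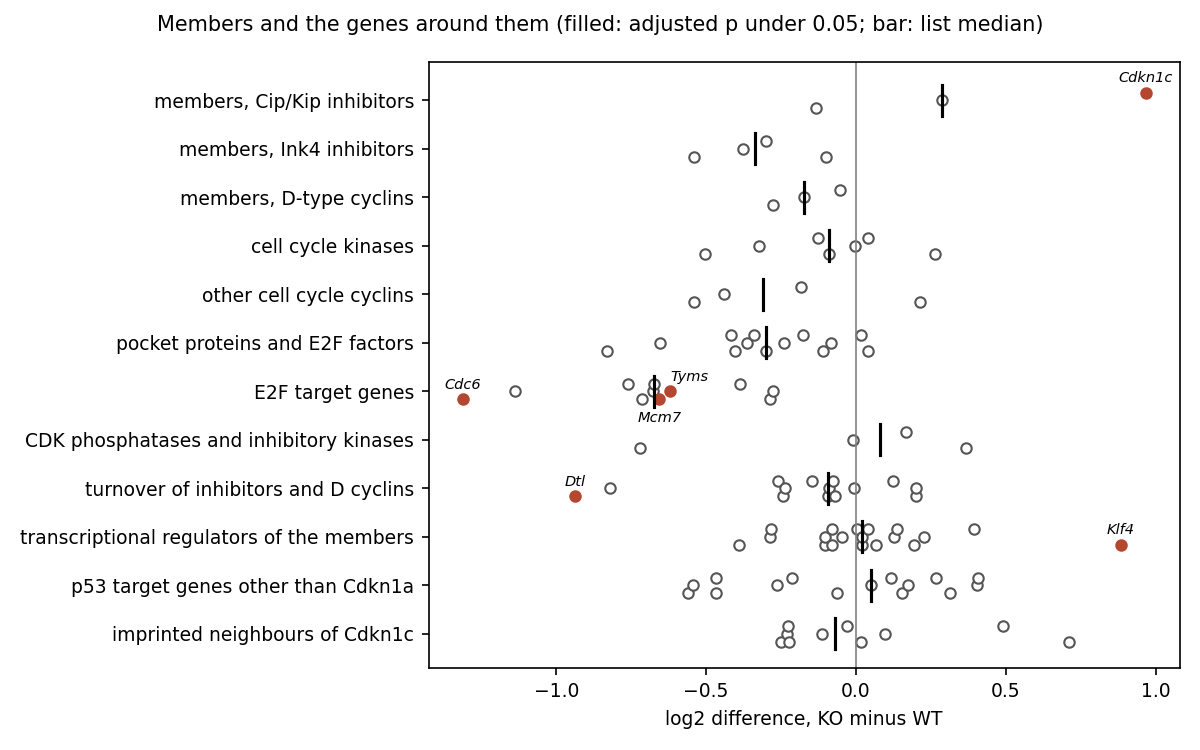
Log2 difference, Glut1-deficient minus wild type, of every tested gene of the member families and 9 lists around them, with filled points for genes past an adjusted p of 0.05 and a bar at each list's median. The filled genes are Cdkn1c and Klf4, which rose, and Cdc6, Mcm7, Tyms and Dtl, which fell.

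Genes for the destruction of CDK inhibitors and D-type cyclins included 1 that fell of 14 tested, against 1.05% of all genes. None rose, and 13 did not pass. Dtl (Cdt2), the substrate receptor of the Cul4 ligase that marks p21 for destruction at replication sites, read 8.04 and 8.29 on the Glut1-deficient arrays, against 9.08 and 9.12 on the wild-type arrays. The genotypes were far apart relative to the spread within each, and Dtl fell by 0.94 on the log2 scale (SE 0.12, limma adjusted p = 0.034). Skp2, the F-box protein that marks p27 and p57 for destruction, read 7.30 and 7.65 on the Glut1-deficient arrays, against 8.25 and 8.35 on the wild-type arrays. Its log2 fold change of -0.82 did not pass (limma adjusted p = 0.0584). Skp1, a subunit of the same ligase, was at -0.26 and Fbxw8, an F-box protein linked to cyclin D1, at -0.24. The list median was -0.09.

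Among transcriptional regulators known to act on the members, 1 of 19 rose, 0 fell and 18 did not pass, against 1.79% of all genes that rose. Klf4, a factor of suprabasal keratinocytes that is known to activate Cdkn1a, read 8.43 and 8.37 on the Glut1-deficient arrays, against 7.52 and 7.51 on the wild-type arrays. Each pair was tight, and Klf4 rose by 0.88 (SE 0.08, 1.84-fold, limma adjusted p = 0.0216), while Cdkn1a itself was at -0.13. Myc, which represses Cdkn2b and Cdkn1a together with its partner Zbtb17 (Miz-1), was at 0.39 (limma adjusted p = 0.093). Smad3, a mediator of TGF-beta signals, was at -0.39 (adjusted p = 0.114) and Trp63, the p63 factor of basal keratinocytes, at -0.29 (adjusted p = 0.155). The FoxO factors linked to Cdkn1b gave no call, with Foxo1 at 0.19, Foxo3 at 0.13 and Foxo4 at -0.08, and the Polycomb genes that hold the Cdkn2a region silent ranged from -0.29 (Ezh2) to 0.04 (Ring1).

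Other p53 targets had differences in both directions. Of 15 tested, none passed in limma (9 at unadjusted p under 0.05, 4 higher and 5 lower), and the median was 0.05. Over all genes 22.2% met that unadjusted threshold, 11% higher and 11.2% lower. Sesn1, a stress-induced inhibitor of TOR signalling, read 5.63 and 5.58 on the Glut1-deficient arrays, against 6.24 and 6.05 on the wild-type arrays (log2 fold change -0.54, limma adjusted p = 0.0695). Both Glut1-deficient values were the lower. Phlda3, an inhibitor of Akt, was at -0.47 (adjusted p = 0.102), the death receptor Fas at -0.47 (adjusted p = 0.131) and the antiproliferative gene Btg2 at -0.56 (adjusted p = 0.141).

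The neighbours of Cdkn1c in its imprinted region of chromosome 7 gave no call. Of 10 tested, 0 passed in limma (4 at unadjusted p under 0.05, 2 higher and 2 lower), and the median was -0.07. That unadjusted threshold was met by 22.2% of all genes. Phlda2, which like Cdkn1c is expressed from the maternal copy in the mouse, read 7.44 and 7.29 on the Glut1-deficient arrays, against 6.46 and 6.85 on the wild-type arrays. The wild-type pair was spread and lay below both Glut1-deficient arrays (log2 fold change 0.71, limma adjusted p = 0.0864). Igf2, a growth factor gene of the adjoining imprinted region that fibroblasts also express, was at 0.49 (adjusted p = 0.0675). Kcnq1ot1, the noncoding RNA that silences Cdkn1c on the paternal copy, was at -0.23, while Cd81 was at -0.23 (adjusted p = 0.201) and Nap1l4 at -0.22 (adjusted p = 0.209).

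**Figure D4:**
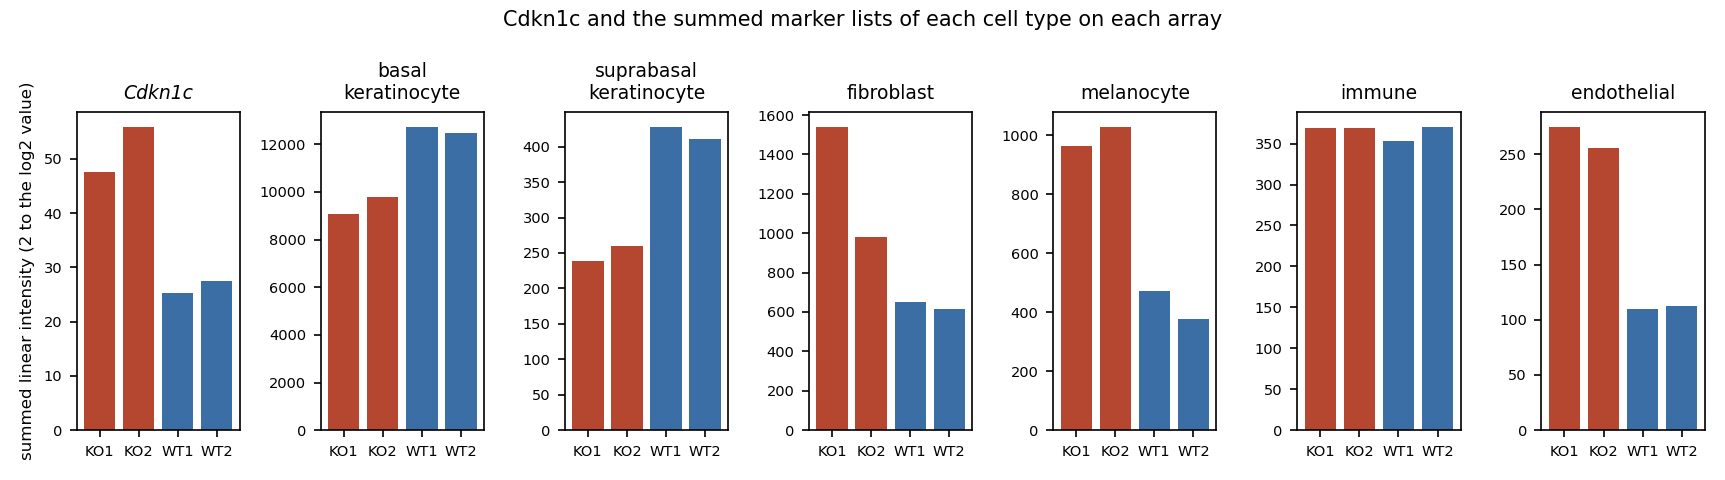
Linear intensity of Cdkn1c and the summed linear intensity of each cell type's marker list on each array, Glut1-deficient arrays (KO1, KO2) left of wild-type arrays (WT1, WT2), with vertical axes from 0 that differ between panels. Fibroblast sums are 1541 and 983 in KO against 653 and 614 in WT, and melanocyte sums 963 and 1029 in KO against 470.5 and 378 in WT.

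Keratinocyte markers were examined on the same arrays. The summed intensity of 6 basal markers was 9082 to 9777 in Glut1-deficient cells, against 12480 to 12740 in wild-type cells, and 5 of the 6 had negative differences. The sum of 7 suprabasal markers was 239 to 259 in Glut1-deficient cells, against 410.5 to 428 in wild-type cells. A sum without Ivl, the marker that passed, was added after the values were seen. It was 166 to 167 in Glut1-deficient cells, against 173.8 to 174.5 in wild-type cells. The median difference of the 7 was 0.02, with 4 positive and 3 negative. Ivl, the envelope protein involucrin, fell by 1.58 on the log2 scale (limma adjusted p = 0.0208), and the other 6 suprabasal markers did not pass. Of all genes, 1.05% fell. None of the 6 basal markers passed in limma, with 5 lower at unadjusted p under 0.05, against 11.2% of all genes. Among the basal markers, Itgb4 was at -0.57 and Itga6 at -0.31, both integrins of the basal layer. Among the suprabasal markers Dsg1a was at -0.59, Krtdap at 0.02, Krt1 at 0.34, Lor at 0.24, Flg at 0.14 and Krt10 at -0.04. Krt1, Lor and Flg read no higher than 4.52 on any array, below 4.76, the median of the means of all genes. Immune marker sums were 369 on both Glut1-deficient arrays, against 353 and 371 on the wild-type arrays. The endothelial sum was 256 to 275 in Glut1-deficient cells, against 110 to 112 in wild-type cells. Kdr alone rose among these 5 markers, against 1.79% of all genes that rose, and Pecam1 (-0.35) and Cdh5 (-0.10) did not pass. The part of these shifts in the differences of the members was not tested.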

How the data were processed

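RNA of 4 keratinocyte pools was read on MoGene 2.0 arrays. The deposited values are log2 intensities per transcript cluster, which the authors obtained by RMA in Affymetrix Expression Console, as listed in the submitters' processing notes, without version or settings. RMA brings the arrays to nearly the same distribution (medians 4.07 to 4.11), so differences are relative to other genes. Of 41345 rows, 23521 had exactly 1 gene symbol in the platform annotation. The brightest row stood for each of 22180 genes. Skp1a was matched as Skp1 through the gene table.

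The genotypes were compared by limma 3.58.1 (R 4.3.3; lmFit, eBayes, 2 residual degrees of freedom, prior 2.95) in two-sided tests. P-values were adjusted by Benjamini and Hochberg's method across the 22180 genes, and those under 0.05 passed. A permutation test of 2 against 2 arrays cannot give p below 0.333. Nothing beyond the labels' word "biological" says how far pools share mice, so p-values reflect only how these pools vary, which may be technical. Replicates were not duplicates (r = 0.9951 for the Glut1-deficient and 0.9962 for the wild-type pair). The members and lists were chosen with earlier results of these data known. Named genes were the members, Slc2a1, up to 4 genes per pathway list with the smallest p and every gene that passed, up to 3 per cell type list with the highest mean, and the 3 most like each member that passed; others, such as Cdk4, Rb1, Krt1, Krt10, Krt15, Lor, Flg, the FoxO genes, Ezh2, Ring1 and Kcnq1ot1, were named after their values were seen. Alternatives were 2 variance models, 3 normalizations, a filter on dim genes, 2 treatments of rows, a replicate block, another threshold and leaving out each array. Figures were drawn with matplotlib 3.10.9.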

Additional observations from a re-analysis of the deposited data

How the results depend on the processing

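With 2 arrays per genotype the count of calls depended on the variance model and on each array. The direction of all 10 members held under all 13 alternatives run for single genes, but many of these could not change it. The variance models, the filter on dim genes, the treatments of rows and the replicate block leave each member's difference as it was. For members whose arrays do not overlap between genotypes, leaving out 1 array cannot turn the sign. Genes called numbered 630 (397 up, 233 down). They numbered 2671 (1344 up, 1327 down) with an intensity trend and 2729 (1368, 1361) with robust estimation added. The calls were 2327 (1214, 1113) among the 11090 genes above the median level, and 1855 (1024, 831) of all genes at adjusted p under 0.1. With any 1 array left out 0 genes and 0 members were called. The replicate numbers share only a label (correlation of same-numbered deviations -0.0251), and as a replicate block they left 37 genes (32 up, 5 down) and 0 members, with Cdkn1c at 0.97 (adjusted p = 0.0685, and 0.0754 for Dtl, 0.072 for Cdc6, 0.112 for Mcm7, 0.111 for Tyms and 0.0708 for Klf4). Members called down numbered 2 with either intensity trend (Cdkn2b at -0.54 and Ccnd1 at -0.28), and 1 among genes above the median level or at adjusted p under 0.1 (Cdkn2b, -0.54). Calls with the intensity trend numbered 10 lower for E2F targets (from 3 in the reported fit), 4 lower for pocket proteins and E2F factors (from 0), 3 lower for turnover genes (from 1), 2 higher and 3 lower for regulators (from 1 and 0), 1 higher and 4 lower for p53 targets, 1 higher and 2 lower for imprinted neighbours, 2 lower for other cyclins, and 1 higher and 1 lower for phosphatases (all from 0). Cdkn1c ran from 0.85 to 1.08 with 1 array left out. Signs turned, far from the threshold, for Cdc25c (0.06 without Glut1-deficient array 1, from -0.19 to 0.17 over arrays left out), Krtdap (-0.05 without Glut1-deficient array 1, from -0.13 to 0.17) and Cd3e (from -0.0576 to 0.0107). Fewer arrays leave 1 residual degree of freedom, and so does the replicate block. The cause of the other shifts was not tested.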

Other observations

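The genes whose values over the 4 arrays were most like those of Cdkn1c, by root mean square distance after each gene was centred on its own mean, were Tbc1d9 (0.0168 on the log2 scale), 4833419F23Rik (0.0308) and Sptlc3 (0.0434), the last a subunit of serine palmitoyltransferase. Tbc1d9 read 6.44 and 6.67 on the Glut1-deficient arrays, against 5.56 and 5.64 on the wild-type arrays. Sptlc3 read 4.65 and 4.93 on the Glut1-deficient arrays, against 3.77 and 3.79 on the wild-type arrays. With 4 arrays in 2 groups, the distance mostly reflects the size of the genotype difference.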
